A study of Homo sapiens with 7 samples.

Results

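The clustered protocadherin genes of chromosome 5 were examined for promoter loops in H3K27ac HiChIP data. HiChIP joins DNA ends that lie close together in crosslinked nuclei and recovers the joined fragments with an antibody, here against acetylation of lysine 27 of histone H3 (H3K27ac), a mark of active promoters and enhancers. Members were the protein-coding genes on chromosome 5 whose symbols begin with PCDHA, PCDHB or PCDHG in the GENCODE annotation of GRCh37, which gave 53 of 20163 protein-coding genes. They comprised 15 alpha genes, 16 beta genes and 22 gamma genes, all on the plus strand between chr5:140165721 and 140892544, an interval of 727 kb.

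The data came from 3 human cancer cell lines. Ishikawa, an endometrial adenocarcinoma line, had 4 samples, 2 of them given DMSO as vehicle and 2 given E2 (17β-estradiol, an estrogen receptor ligand) at 10 nM, each for 1 h. T-47D, a ductal carcinoma line of the breast, had 1 sample and LNCaP, a prostate carcinoma line, had 2, and the labels give no treatment for either. Ishikawa chromatin was cut with DpnII and the other chromatin with MboI, and sonication, read length and sequencing depth followed the same split, so wherever Ishikawa is compared, the line and these steps cannot be told apart.

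Protocadherins are cadherin-like adhesion proteins of the cell surface. In the alpha and gamma clusters each variable exon has a promoter of its own and is spliced to constant exons that the whole cluster shares, whereas beta genes are single-exon genes with no shared end. In neurons each cell uses a small, largely random subset of the promoters, and the resulting mixture of proteins lets a neuron tell its own branches from those of other neurons. CTCF and cohesin are known to bring the chosen promoters to distant enhancers, and a short conserved box in most of the promoters contains the letters CGCT. The genes named C type are used more constitutively and lie at the 3′ ends of the alpha and gamma clusters.

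A loop was defined as a pair of different anchors on the same chromosome, an anchor being a stretch of DNA that the authors' loop caller delimited. A member had a promoter loop where an anchor of a loop overlapped by 1 bp or more a window of 500 bp centred on any of its annotated start sites. The value of a loop is its number of read pairs. Each line has 1 list, so there is no replicate error for any value, and the intervals given are exact Poisson or binomial 95% intervals that cover counting error only. The lists held 163530 loops with 1040329 read pairs in Ishikawa, 42027 with 351260 in T-47D and 149226 with 1805322 in LNCaP. Loops under 3 read pairs, or that failed the authors' test of significance, were absent from all lists, so no loop means that none passed both filters. The Ishikawa list was made of 4 separately sorted parts whose samples are not stated, and the DMSO and E2 samples were therefore not set against each other. Anchors in Ishikawa were wider, with a median of 5.10 kb, than in T-47D (2.61 kb) or LNCaP (3.23 kb).

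The labels of the lines were checked against promoters of defining genes. KLK3, which encodes prostate-specific antigen, had 2936 read pairs in LNCaP, 6 in Ishikawa and 0 in T-47D. GATA3, a transcription factor of luminal breast cells, had 0 read pairs in LNCaP, 7 in Ishikawa and 1063 in T-47D. PAX8, a transcription factor of the female reproductive tract, had 0 read pairs in T-47D and LNCaP and 162 in Ishikawa. TMPRSS2 also had 231 read pairs in Ishikawa beside 1056 in LNCaP, so that this prostate gene did not separate the lines. ESR1, the estrogen receptor gene, did not single out T-47D either. Its count was lower for T-47D (195) than for Ishikawa (299), and LNCaP had 8. Per 100000 read pairs of the list that order was reversed, at 55.5 for T-47D against 28.7 for Ishikawa.

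The promoter boxes below were read from GRCh37 upstream of the 5′ end of each gene, plus strand, with the 6 letters GNCGCT in capitals. They are shown because the same box recurs in promoters with and without loops. PCDHA3, PCDHA4 and PCDHA10 took part in the strongest alpha loops, PCDHB5, PCDHGA7 and PCDHGA10 had loops in all 3 lists, and PCDHB13, PCDHGB1, PCDHGA5, PCDHGB5 and PCDHGC3 took part in named loops. PCDHA8, PCDHB10 and PCDHGB4 had no loop in any list.
PCDHA3 (chr5:140180575-140180610): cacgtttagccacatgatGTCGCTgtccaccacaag
PCDHA4 (chr5:140186560-140186595): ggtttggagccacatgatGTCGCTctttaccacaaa
PCDHA10 (chr5:140235422-140235457): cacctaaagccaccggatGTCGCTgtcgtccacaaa
PCDHA8 (chr5:140220711-140220746): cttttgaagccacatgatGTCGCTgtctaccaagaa
PCDHB5 (chr5:140514757-140514787): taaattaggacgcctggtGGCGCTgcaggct
PCDHB13 (chr5:140593433-140593468): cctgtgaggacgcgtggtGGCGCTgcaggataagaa
PCDHB10 (chr5:140571868-140571903): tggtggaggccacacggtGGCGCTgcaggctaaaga
PCDHGB1 (chr5:140729588-140729623): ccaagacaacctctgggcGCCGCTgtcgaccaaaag
PCDHGA5 (chr5:140743670-140743705): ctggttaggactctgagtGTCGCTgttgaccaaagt
PCDHGA7 (chr5:140762212-140762247): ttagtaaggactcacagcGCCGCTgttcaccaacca
PCDHGB5 (chr5:140777426-140777461): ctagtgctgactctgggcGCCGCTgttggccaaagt
PCDHGB4 (chr5:140767180-140767215): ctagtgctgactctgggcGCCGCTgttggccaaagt
PCDHGA10 (chr5:140792494-140792529): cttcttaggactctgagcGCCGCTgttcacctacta
PCDHGC3 (chr5:140855443-140855478): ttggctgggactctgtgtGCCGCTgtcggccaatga

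The box differed between the clusters. GNCGCT was found on the plus strand within the 100 bases before the gene's 5′ end in 43 members, starting 13 to 97 bases before it, and in 10 members it was not. Its second letter was T in all 11 alpha boxes and G in 12 of the 14 beta boxes. In gamma boxes it was C in 12 and T in 6. Searched on both strands of the same 100 bases, GNCGCT occurred in 43 of 53 members and in 23.7% of all protein-coding promoters. The longer alpha form ATGTCGCT occurred in 9 members, all alpha, and in 0.0942% of all promoters, and the longer beta form GGTGGCGCT in 13 members, all beta, and in 0.307%. The letters of these forms were chosen after the member sequences had been read. A single box was taken per promoter, in the order ATGTCGCT, TGTCGCT, GGTGGCGCT, GNCGCTGT and then any GNCGCT. The counts of the second letter therefore lean to these forms where a promoter held several boxes.

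The box was present in promoters with loops and in promoters without. Of the 32 members with a loop in any list, 27 held GNCGCT in the 100 bases before the start, and of the 21 members with no loop, 16 did. CGCT alone, anywhere in the 500 bp window on either strand, was in 52 members and in 86.2% of all promoters. AGNNGGC, the inner letters of the CTCF motif, was in 35 members, or 66.0%, and in 83.4% of all promoters. The full CTCF motif was not searched and binding was not measured, so these shares do not give the number of CTCF sites. Members had a median GC content of 43.4% over the 500 bp window, against 61.6% for all promoters, and the median was 43.5% in members with a loop and 43.2% in members with none. The printed stretches of PCDHGB4 and PCDHGB5 are identical, yet PCDHGB5 had loops in T-47D and LNCaP and PCDHGB4 had none. Words of 50 bases repeated elsewhere in the interval occurred in the windows of 10 members, and made up 21.3% of the words of PCDHGB5 and at most 32.6%, in PCDHB13. How reads from such copies were assigned was not tested.

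The share of protocadherin promoters with a loop was below that of all promoters in each list, given as a description without a test. In Ishikawa 20 members (37.7%) had a promoter loop and 33 had none, beside 57.3% of all protein-coding genes with a loop. In T-47D 18 members (34.0%) had a loop and 35 had none, beside 49.2% of all genes. In LNCaP 11 members (20.8%) had a loop and 42 had none, beside 58.1% of all genes. The members with no loop also had no anchor over any start site in any row of that list, pairs of an anchor with itself included.

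Few members had loops in every line. PCDHB5, PCDHGA7 and PCDHGA10 had a loop in all 3 lists, which is 5.66% of the members, whereas 33.4% of all genes did. No loop in any list was found for 21 members, or 39.6%, against 24.1% of all genes. These were PCDHA6, PCDHA8, PCDHA9, PCDHA12, PCDHAC1, PCDHB1, PCDHB3, PCDHB4, PCDHB8, PCDHB10, PCDHB11, PCDHB12, PCDHB14, PCDHB15, PCDHGB4, PCDHGA8, PCDHGA9, PCDHGB7, PCDHGA11, PCDHGC4 and PCDHGC5. They include PCDHB1 and PCDHB15, the first and last beta genes, and PCDHGC5, the last gamma gene.

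The lists differed in which members had loops. A loop in T-47D and none in LNCaP was seen for 9 members, or 17.0%, a pattern shared by 4.92% of all genes. The reverse, a loop in LNCaP and none in T-47D, was seen for PCDHGA3 and PCDHGA5, and for 13.8% of all genes. PCDHB2, PCDHB6, PCDHB13, PCDHGB1, PCDHGB5 and PCDHGC3 had loops in T-47D and LNCaP and none in Ishikawa. That pattern held 11.3% of the members, near the 10.9% of all genes. A loop in Ishikawa and none in T-47D was seen for 13 members, or 24.5%, and for 21% of all genes. Of those 13, 12 had a loop in Ishikawa alone, which is 22.6% of the members, against 12.9% of all genes. Among these were PCDHA10 and PCDHA13 and the pairs PCDHGA1 and PCDHGA2, PCDHGA4 and PCDHGB2, and PCDHGB3 and PCDHGA6. The start windows of each of these pairs overlapped a single Ishikawa anchor, so the genes of a pair share the same loops and are not separate observations. These anchors were 15.7, 4.99 and 4.59 kb wide in that order, beside the Ishikawa median of 5.10 kb. Some windows were covered only in part, and 17 members had an Ishikawa loop when full cover of the window was required. PCDHGB6 and PCDHGA10 shared an Ishikawa anchor in the same way.

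**Figure D1:**
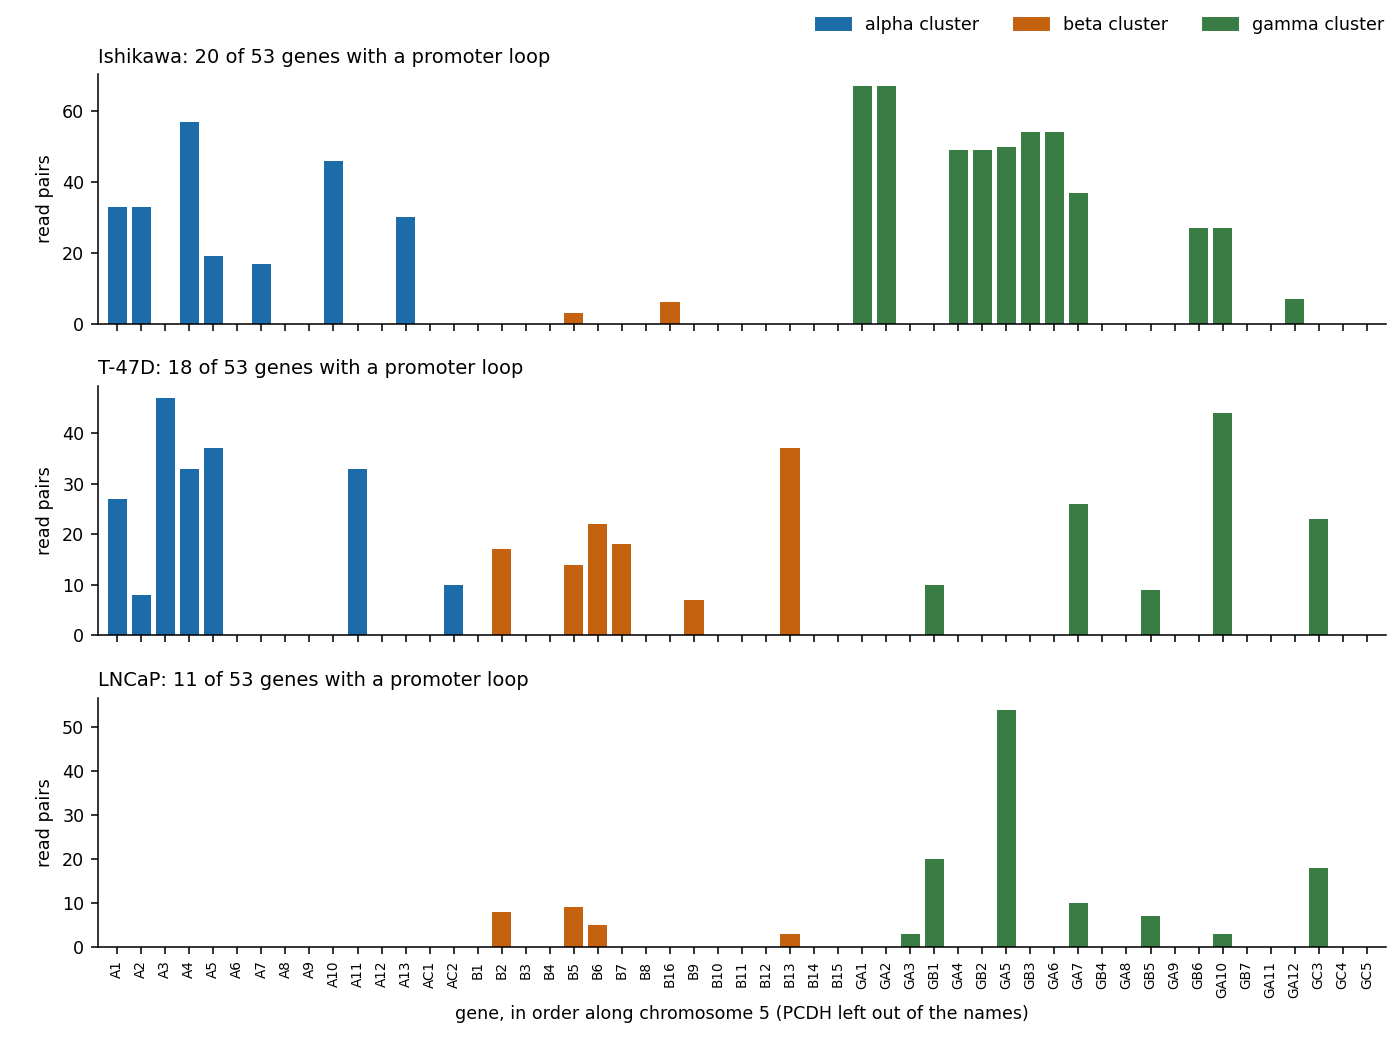
Read pairs in promoter loops of each of the 53 genes (bars, y axis, a separate linear scale per panel starting at 0), in chromosomal order (x axis), for the 3 lists, with alpha, beta and gamma genes in different colours. LNCaP has no bar in the alpha cluster, Ishikawa has bars of 3 and 6 read pairs in the beta cluster, and neighbouring genes that share an anchor have bars of equal height.

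The support of the members' loops also differed between the lists. The distinct loops numbered 52 with 318 read pairs in Ishikawa, 58 with 281 in T-47D and 22 with 101 in LNCaP. Per 100000 read pairs of the list this was 30.6 for Ishikawa (27.3 to 34.1), 80.0 for T-47D (70.9 to 89.9) and 5.59 for LNCaP (4.56 to 6.80). The T-47D rate was 14.3 times that of LNCaP (11.4 to 18.1) and 2.62 times that of Ishikawa (2.22 to 3.08). LNCaP was the lowest under all alternatives tried, but the order of the other lists depended on weak loops. With loops of 10 or more read pairs the rates were 34.8 for Ishikawa, 18.1 for T-47D and 0.772 for LNCaP. The highest loop of a member had 15 read pairs for Ishikawa, 15 for T-47D and 10 for LNCaP, where the highest loop of the whole list had 428, 513 and 3007. Loops with just 3 read pairs were 44.2% of the members' loops for Ishikawa, 41.4% for T-47D and 40.9% for LNCaP, where they were 45.5%, 29.7% and 25.9% of all loops.

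The Ishikawa parts did not contribute alike. The member loops numbered 27, 6, 15 and 32 in the 4 parts, with 106, 20, 57 and 135 read pairs. Of the 52 loops, 19 (36.5%) were in 2 or more parts, near the 33.8% of all Ishikawa loops, and 0 were in all 4. Leaving out each part in turn left 19 or 20 members with a loop.

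The alpha cluster showed the widest difference between the lists. In T-47D 7 of the 15 alpha genes had a loop (46.7%, near the 49.2% of all genes). These had 124 read pairs over 24 distinct loops. In Ishikawa 7 had a loop too (46.7%, against 57.3% of all genes), with 142 read pairs over 24 distinct loops. In LNCaP 0 of 15 had a loop, against 58.1% of all genes. For this count of 0 the exact Poisson interval ends at 0.204 per 100000 read pairs of the list. A loop at the minimum of 3 read pairs would stand at 0.166. Neither value covers loops that the authors filtered out. With 3 read pairs put in place of the 0, the T-47D rate gave a ratio of 212 and the Ishikawa rate 1 of 82.1. These 3 read pairs were not observed, so the ratios are given without an interval. No LNCaP anchor lay anywhere in the 226 kb from the start of PCDHA1 to the end of the alpha cluster, whereas anchors covered 8.93% of it in T-47D and 21.5% in Ishikawa.

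LNCaP loops passed over the alpha cluster. They numbered 11, with 3 to 5 read pairs each and 38 in all, and spanned 854 to 1746 kb. Of these, 10 also passed over every other member. Upstream ends lay over the promoters of PURA and IGIP (PURA is a single-stranded DNA-binding protein), ANKHD1, HARS1 and HARS2 (histidyl-tRNA synthetases) and elsewhere. Of the 11 downstream ends 6 lay in DIAPH1, which encodes an actin-nucleating formin, and 2 over the promoter of PCDH1, a protocadherin outside the clusters. T-47D had 2 loops over the alpha cluster, of which 1 passed over all members, and Ishikawa had 0. Over the whole lists the median span was 113 kb in LNCaP, 85.8 kb in T-47D and 37.0 kb in Ishikawa. The share of loops of such length in each list is not given here, so the counts cannot be called particular to this cluster.

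Within the alpha cluster of T-47D, the strongest loops joined promoters close to each other. The strongest member loop of the list joined PCDHA3 (chr5:140180124-140181667) to PCDHA4 (chr5:140185696-140187657) with 15 read pairs over 5.78 kb. PCDHA4 to PCDHA5 (chr5:140199786-140203246) had 10 read pairs and PCDHA3 to PCDHA5 had 9. PCDHA3 had the most read pairs of any member in T-47D, with 47 in 8 loops, and no anchor over it in the other lists. PCDHA5 had 37 read pairs in 5 loops, PCDHA4 33 in 4 and PCDHA11 33 in 7. PCDHA1, the first gene of the cluster, had 27 in 7 loops and PCDHA2 had 8 in 2. Of the 28 possible pairs among the 8 alpha promoter anchors of T-47D, 13 were joined, and of the 7 pairs of neighbouring anchors 6 were.

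In Ishikawa the joined alpha promoters were partly others. The strongest loop joined PCDHA10 (chr5:140235578-140244560) to PCDHA13 (chr5:140258444-140266190), with 15 read pairs in 3 of the 4 parts. The PCDHA10 anchor also overlaps the start window of AC005609.1, an annotated protein-coding gene on the same stretch. PCDHA4 to PCDHA5 followed with 13 read pairs and PCDHA1 to PCDHA2 with 12. Those last 2 loops were also in T-47D, with 10 and 4 read pairs. PCDHA4 had 57 read pairs in 8 Ishikawa loops, PCDHA10 46 in 8, PCDHA1 and PCDHA2 33 each in 4 and 5, and PCDHA5 19 in 3. Of the 21 possible pairs among the 7 alpha promoter anchors of Ishikawa, 13 were joined, and so were 5 of the 6 neighbouring pairs.

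A stretch downstream of the alpha cluster met many alpha promoters in T-47D. The alpha genes are known to depend on an enhancer that lies beyond their constant exons, and the coordinates of that enhancer were not used here. In T-47D an anchor over no protein-coding promoter, chr5:140418923-140421630, which overlaps an exon of a long non-coding RNA, was joined to 6 alpha promoters with 32 read pairs. PCDHA11 had 9 of these read pairs over 171 kb, PCDHA5 had 8 over 219 kb, and PCDHAC2 and PCDHA3 had 3 each. PCDHA1 and PCDHA4 were the others. No LNCaP anchor overlapped it and the nearest Ishikawa anchors joined to a member, chr5:140404004-140409300 and chr5:140412779-140418749, met PCDHA10 alone, with 10 and 3 read pairs. In Ishikawa the anchor over the last alpha exons, chr5:140389855-140396404, met PCDHA4, PCDHA10 and PCDHA13 with 12 read pairs, and an intergenic anchor just before PCDHA1, chr5:140159268-140163549, met PCDHA1, PCDHA2 and PCDHA4 with 13.

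**Figure D2:**
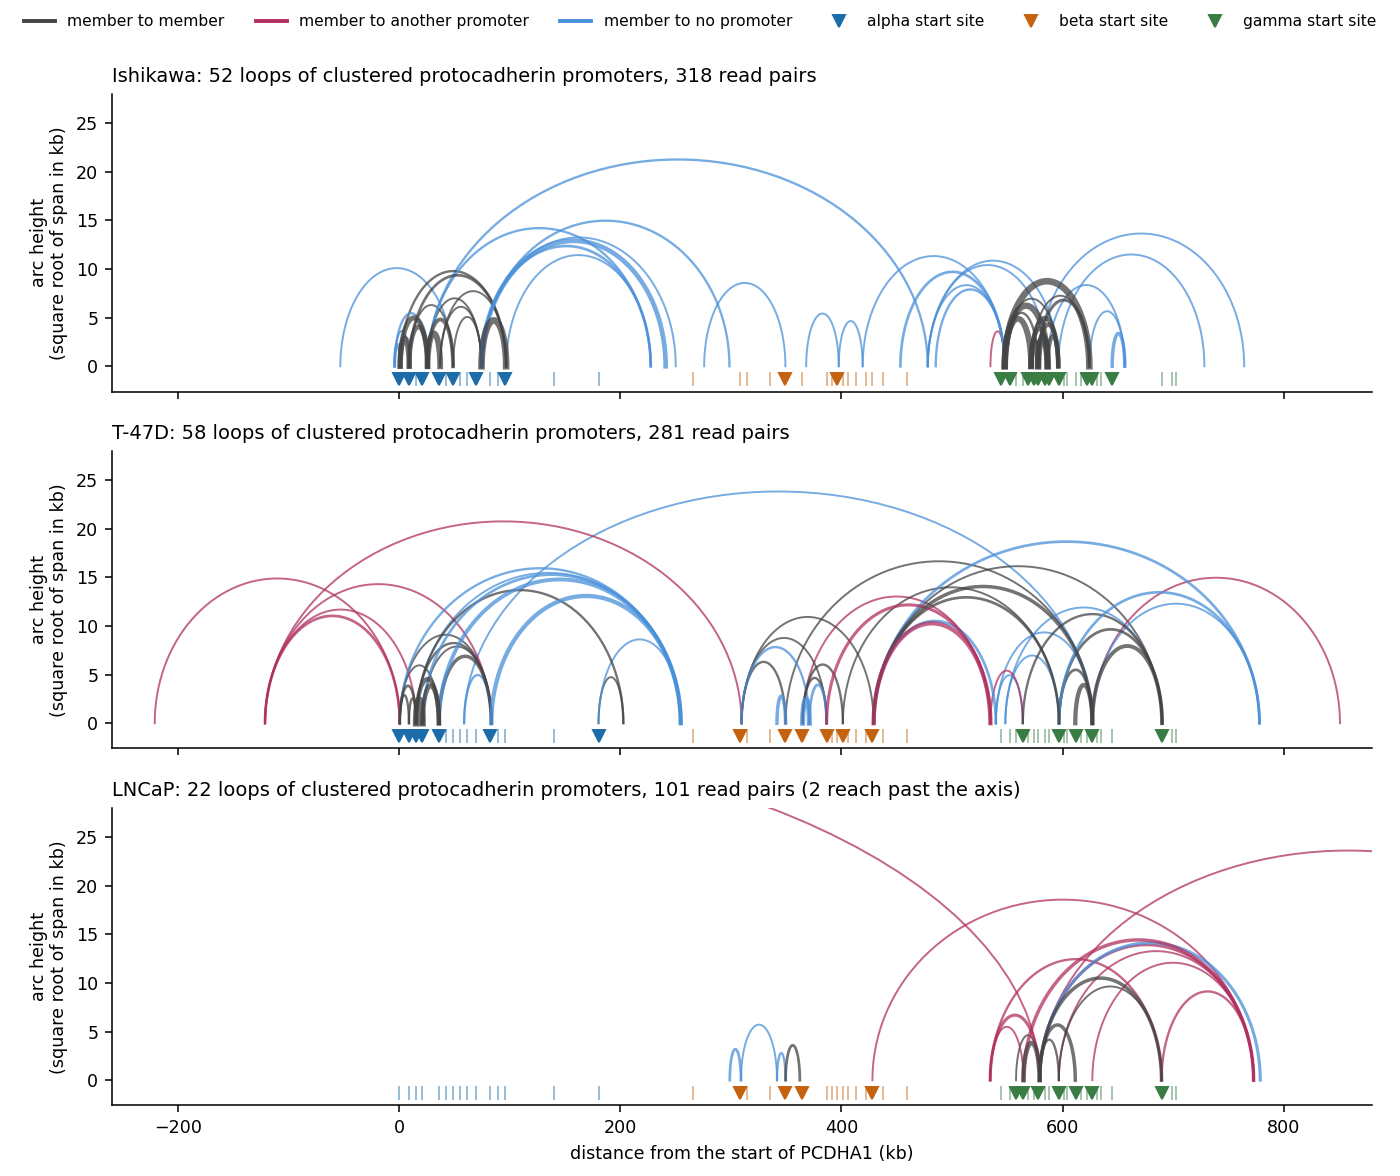
Loops of clustered protocadherin promoters in the 3 lists, drawn as arcs between anchor midpoints against the distance from the start of PCDHA1 in kb (x axis), with arc height the square root of the span in kb (y axis), line width rising with read pairs and colour giving what the other anchor lies over. Triangles mark start sites of genes with a loop and ticks those without one. Arcs from alpha promoters number 24 for Ishikawa, 24 for T-47D and 0 for LNCaP. In T-47D an arc of 3 read pairs from PCDHGA10 also ends in the alpha cluster, 568 kb away over an exon of PCDHA8.

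The beta cluster had most of its loops in T-47D. There 6 of the 16 beta genes had a loop (37.5%, against 49.2% of all genes). These had 97 read pairs, or 27.6 per 100000 (22.4 to 33.7). In LNCaP 4 had a loop, with 20 read pairs, and in Ishikawa 2, PCDHB5 and PCDHB16, with 9 read pairs over 3 loops, all at the minimum of 3. The T-47D rate was 24.9 times that of LNCaP (15.3 to 42.6) and 31.9 times that of Ishikawa (16.1 to 71.9), whereas the rates of Ishikawa and LNCaP had a ratio of 0.781 with an interval from 0.313 to 1.79. Anchors covered 26.5% of the beta cluster for Ishikawa, 11.5% for T-47D and 9.27% for LNCaP, so anchors were present there in Ishikawa and mostly away from start sites.

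PCDHB13 led the beta genes of T-47D, with 37 read pairs in 7 loops. It met TAF7 (chr5:140699305-140701686), which encodes a subunit of the general transcription factor TFIID and lies between the beta and gamma clusters, with 9 read pairs over 106 kb. It also met the gamma promoters PCDHGA10 with 7, PCDHGA7 with 5 and PCDHGC3 with 3 read pairs. Loops between beta and gamma promoters numbered 5 in T-47D, with 21 read pairs, and all other loops between members, in all 3 lists, stayed within a cluster. In LNCaP PCDHB13 had a single loop of 3 read pairs, to DIAPH1 over 345 kb.

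The other beta genes mostly met nearby stretches. PCDHB6 was joined in T-47D with 11 read pairs to chr5:140534590-140538724, which overlaps the pseudogene PCDHB17P, over 6.08 kb. PCDHB6 had 22 read pairs in all in T-47D and 5 in LNCaP, the latter in a loop to PCDHB5. PCDHB2 had 17 read pairs in 5 T-47D loops and 8 in 2 LNCaP loops, and no other LNCaP member met more than 1 distal anchor. PCDHB5 had 3 read pairs for Ishikawa, 14 for T-47D and 9 for LNCaP. Its loop to a distal anchor near chr5:140506193-140508596 was in T-47D with 7 read pairs and in LNCaP with 4, from anchors that begin at the same base over PCDHB5.

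Each list had loops from several promoters of the gamma cluster. In Ishikawa 11 of the 22 gamma genes had a loop, from 7 anchors, with 167 read pairs. In T-47D 5 had a loop (22.7%, against 49.2%), with 81 read pairs, and in LNCaP 7 (31.8%, against 58.1%), also with 81. Thinned to the T-47D total, the LNCaP list kept 2 gamma genes with a loop, which shared a single loop of 5 read pairs. Loops of that thinned list held 253773 read pairs, against 351260 in T-47D, so this was no comparison at equal depth. At full depth the rates per 100000 were 16.1 (13.7 to 18.7), 23.1 (18.3 to 28.7) and 4.49 (3.56 to 5.58). By type, 8 of the 12 gamma A genes and 3 of the 7 gamma B genes had a loop in Ishikawa, against 2 and 2 in T-47D and 4 and 2 in LNCaP. These shares were 66.7% and 42.9% in Ishikawa, 16.7% and 28.6% in T-47D, and 33.3% and 28.6% in LNCaP.

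In Ishikawa the gamma loops tied the early gamma A and gamma B promoters together. PCDHGA1, the first gamma gene, and PCDHGA2 shared an anchor of 15.7 kb (chr5:140705591-140721284) with 67 read pairs in 10 loops, the most of any member of the list. That anchor met the anchor over PCDHGB6 and PCDHGA10 with 15 read pairs, the one over PCDHGB3 and PCDHGA6 with 14 and the one over PCDHGA4 and PCDHGB2 with 13. PCDHGA5 met PCDHGB3 and PCDHGA6 with 15 read pairs over 8.61 kb, all of them in 2 parts, and met PCDHGA4 and PCDHGB2 with 13. Of the 21 possible pairs among the 7 gamma promoter anchors, 13 were joined. An anchor inside TAF7, chr5:140641225-140646371, was joined to 4 promoter anchors with 13 read pairs, each loop in 1 part. One of them was the alpha promoter PCDHA4, with 4 read pairs over 453 kb. The gamma anchors, over PCDHGA1 and PCDHGA2, PCDHGB3 and PCDHGA6, and PCDHGA7, had the minimum of 3 read pairs each.

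In LNCaP a single promoter carried most of the gamma loops. PCDHGA5, under the anchor chr5:140741796-140748267, had 54 of the 101 read pairs of all members, in 10 loops. It met PCDHGB1 with 10 read pairs, the strongest member loop of the list, PCDHGB5 and PCDHGC3 with 7 each, TAF7 with 6 and an intron of DIAPH1 (chr5:140942443-140946762) with 6. In T-47D no anchor lay over PCDHGA5, and in Ishikawa it had 50 read pairs in 6 loops. PCDHGB1 had 20 read pairs in 3 LNCaP loops and 10 in 3 T-47D loops. In LNCaP it met the anchor over DIAPH1, chr5:140935668-140941535, with 7 read pairs over 208 kb. This DIAPH1 anchor was joined to 6 promoters, those of PCDHB13, PCDHGB1, PCDHGA5, PCDHGA7, PCDHGA10 and PCDHGC3, with 25 read pairs.

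PCDHGA10 and PCDHGA7 had loops in every list. PCDHGA10 had 27 read pairs in 4 Ishikawa loops, 44 in 9 T-47D loops and 3 in 1 LNCaP loop. In T-47D it met PCDHGB5 with 9 read pairs and PCDHGC3 with 8, and it had 3 distal anchors, the most of any member of the list. PCDHGA7 had 37 read pairs in 6 Ishikawa loops, 26 in 6 T-47D loops and 10 in 3 LNCaP loops. It met PCDHGC3 in T-47D (5 read pairs) and LNCaP (3), and PCDHGA5 in Ishikawa (9) and LNCaP (4). PCDHGB5 had 9 read pairs in T-47D and 7 in LNCaP, in 1 loop each. The LNCaP and T-47D anchors over PCDHGB5 (chr5:140776138-140778380) and PCDHGA10 (chr5:140791102-140794306) had the same edges, yet no loop that ended on them was shared. PCDHGA10 nevertheless met DIAPH1 in both lists, with 3 read pairs each. The LNCaP anchor lay over the DIAPH1 promoter (chr5:140935668-140941535) and the T-47D anchor in an intron (chr5:140942443-140945376).

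Of the 5 C type genes 2 had a loop, and none of them had one in Ishikawa. PCDHGC3 had 23 read pairs in 5 T-47D loops and 18 in 4 LNCaP loops. PCDHAC2, the last alpha gene, had 10 read pairs in 3 T-47D loops from anchors over 2 of its start sites, and 1 of these loops joined those anchors to each other. PCDHAC1, PCDHGC4 and PCDHGC5 had no loop in any list, as did 24.1% of all genes.

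The partners of the members' loops differed in kind. In Ishikawa 26 of the 52 loops joined members to each other, 1 reached the promoter of another gene, 20 ended over no promoter inside the interval and 5 outside it. In T-47D these numbers were 28, 10, 17 and 3, and in LNCaP 7, 11, 3 and 1. The 28 T-47D loops include the loop between anchors over different start sites of PCDHAC2. Promoters of other genes were thus reached by 11 of the 22 LNCaP member loops, against 17.2% of those in T-47D and 1.92% of those in Ishikawa. The same shares over all promoter loops of the lists are not given here. In LNCaP the other promoters included that of DIAPH1, whose anchor met 6 member promoters. In T-47D these other promoters were those of TAF7 (21 read pairs with 4 members), WDR55 (14 with 4), APBB3 and SLC35A4 (3) and HDAC3 and RELL2 (3). T-47D loops also reached DIAPH1, at an anchor in an intron (chr5:140942443-140945376) that met PCDHB13, PCDHGA7 and PCDHGA10 with 13 read pairs. That anchor lies over no promoter, so its loops fall in the last class. The median span of the member loops was 43.0 kb for Ishikawa, 90.3 kb for T-47D and 88.1 kb for LNCaP, beside 37.0, 85.8 and 113 kb over all loops of those lists.

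**Figure D3:**
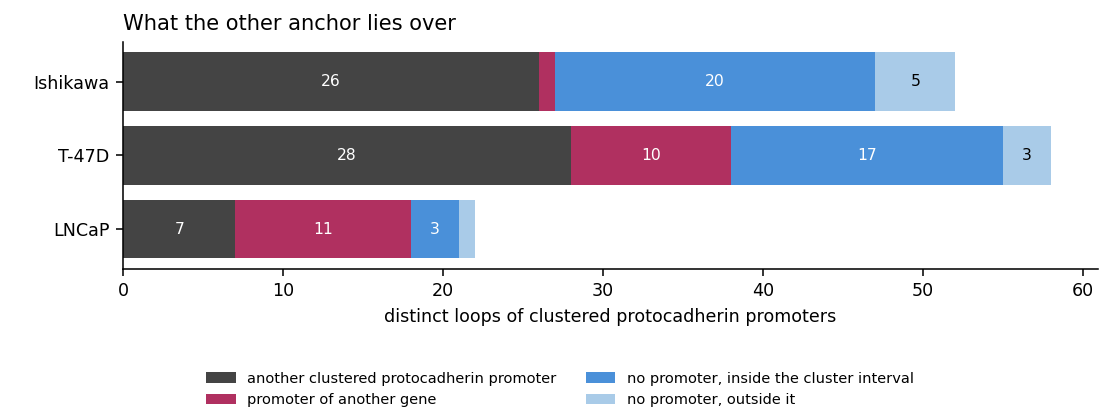
Distinct loops of clustered protocadherin promoters in each list (bar length, x axis), divided by what the other anchor lies over. The bars end at 52, 58 and 22 loops. The part that reaches the promoter of another gene holds 1 loop for Ishikawa, 10 for T-47D and 11 for LNCaP.

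Links to distal anchors, which lie over no protein-coding promoter and hold the candidate enhancers, were fewest in LNCaP. In Ishikawa 17 members were linked to a distal anchor, or 32.1%, against 52.5% of all genes. In T-47D 15 were, or 28.3%, against 34.7% of all genes. In LNCaP 3 were, PCDHB2, PCDHB5 and PCDHGA5, or 5.66%, against 52.4% of all genes. The distinct distal anchors numbered 15, 7 and 3. The order of Ishikawa and T-47D did not hold under all alternatives. Ishikawa had 1 such anchor after thinning to the T-47D total, and both lists had 5 with loops of 5 or more read pairs. Loops of the thinned Ishikawa list held 224644 read pairs, against 351260 in T-47D, so this was no comparison at equal depth. PCDHGA1, PCDHGA2 and PCDHA10 had the most in Ishikawa, with 4 each.

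Few of the members' loops were shared between the lists. The share over all loops of the lists is not given here, so low sharing cannot be called particular to these genes. A loop was counted as shared where both of its anchors overlapped those of a single loop of the other list. Of the 58 T-47D loops 3 were found in LNCaP and 4 in Ishikawa. Of the 22 LNCaP loops 3 were found in T-47D (13.6%) and 1 in Ishikawa. Of the 52 Ishikawa loops 5 were found in T-47D (9.62%) and 2 in LNCaP. The promoter anchors themselves overlapped more often, since 9 of the 11 LNCaP promoter anchors (81.8%) overlapped a T-47D promoter anchor and 9 of the 19 T-47D promoter anchors overlapped a LNCaP one. With Ishikawa, 5 of the LNCaP and 9 of the T-47D promoter anchors overlapped.

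The surroundings of the clusters were compared in the same way. Loops with an anchor in the interval numbered 89.4 per Mb for Ishikawa, 88.1 for T-47D and 34.4 for LNCaP. In the upstream flank of equal length they numbered 79.8, 89.4 and 303 per Mb, and in the downstream flank 93.6, 53.7 and 102. LNCaP thus had fewer loops in the interval than in either flank, while in Ishikawa the 3 stretches were between 79.8 and 93.6. The flanks held 21 and 11 protein-coding genes and the interval 57.

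Other genes of 5q31 had loops in most cases. Of 23 neighbours, 14 had a promoter loop for Ishikawa, 17 for T-47D and 17 for LNCaP. TAF7 had 3, 58 and 37 read pairs in the 3 lists in that order, and DIAPH1 had 6, 6 and 185. SLC25A2, a mitochondrial carrier gene inside the interval, had no loop in any list. The protocadherins PCDH12 and PCDH1, which lie downstream of the clusters and are not members, had 36, 69 and 60 read pairs and 0, 137 and 128. Of 12 protocadherins outside the clusters, 5, 2 and 2 had a loop.

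Other lists of genes gave other orders of the lines. Of 18 genes for proteins known to act on clustered protocadherin promoters, such as CTCF, the cohesin subunits and the silencing factor SMCHD1, 14, 16 and 18 had a promoter loop in Ishikawa, T-47D and LNCaP. CTCF had 111, 98 and 375 read pairs and SMCHD1 had 57, 7 and 779. Among other tandem families, 24, 12 and 13 of 39 HOX genes had a loop, 106, 188 and 215 of 249 zinc finger genes of chromosome 19, and 26, 37 and 37 of 51 histone genes of chromosome 6. Olfactory receptor genes, a family that these tissues are not known to use, had a loop in 116 of 415 cases for Ishikawa, 0 for T-47D and 12 for LNCaP. The Ishikawa share of the members thus stood beside a higher share in that family than in the other lists, and the part of the wider Ishikawa anchors in it was not tested.

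**Figure D4:**
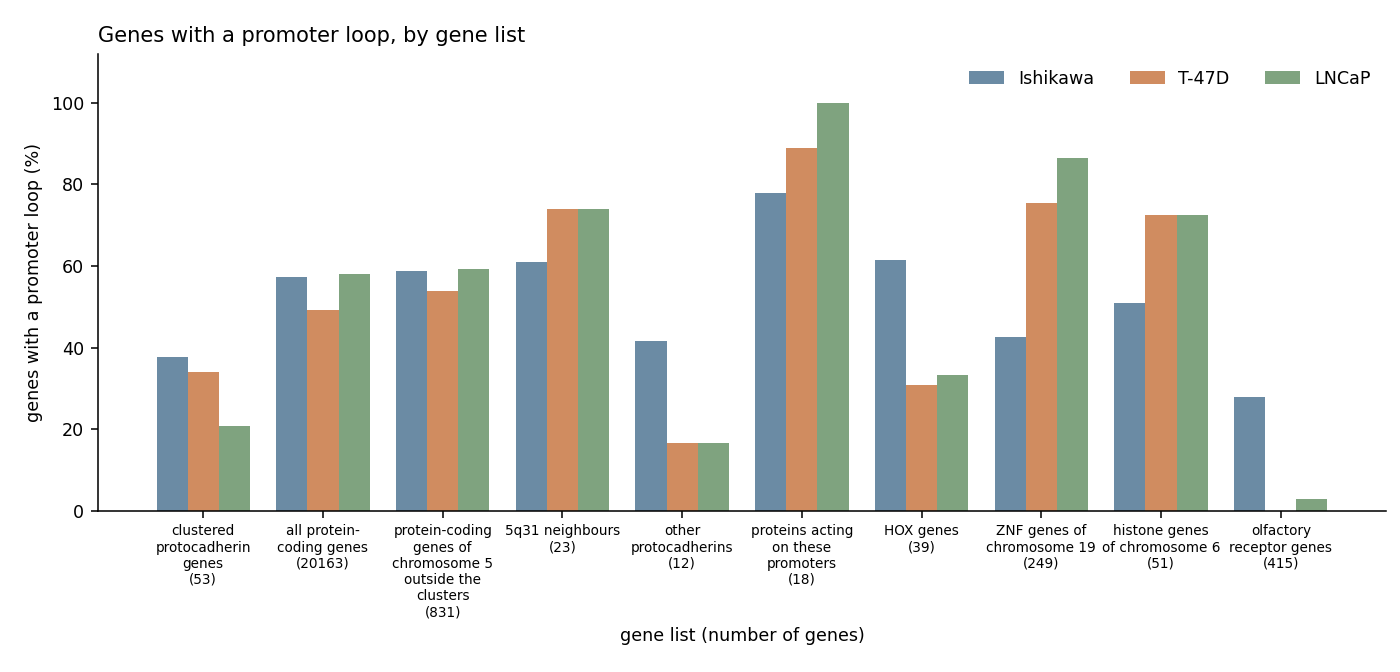
Percent of genes with a promoter loop (y axis, bars from 0) in each list of loops, for the clustered protocadherin genes, all protein-coding genes and the other gene lists (x axis, with the number of genes). The clustered protocadherin bars stand at 37.7%, 34.0% and 20.8%, below the bars of all genes at 57.3%, 49.2% and 58.1%.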

How the data were processed

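H3K27ac HiChIP was performed in 7 samples of 3 cell lines. Per the study's methods, the authors aligned reads to hg19 with HiC-Pro, called loops with hichipper, removed loops under 3 read pairs or of weak significance, and combined the Ishikawa loops. The deposited values are counts of read pairs per loop, unscaled. No column of samples was left unused. The members and lists were chosen with earlier results of these data known.

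Rows of the same pair of anchors were summed over the Ishikawa parts, and pairs of an anchor with itself or between chromosomes were set aside. All 146 anchor edges within the cluster interval lay at GATC on GRCh37, so GENCODE annotation and sequence of that build were used. The lists were not filtered alike, since LNCaP had no self pairs. Rates were set against the read pairs in loops of the list. Ratios of rates have exact binomial intervals. Alternatives were a minimum of 5 or of 10 read pairs, lists thinned to the T-47D total, promoters of 2 kb, other start sites, full cover of the window, spans of 20 kb to 1 Mb, loops in 2 or more Ishikawa parts, leaving out parts, and an overlap of 50%. The thinned lists held 224644 read pairs in loops for Ishikawa and 253773 for LNCaP, below the 351260 of T-47D. No test between lines was possible with 1 list each.

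Members were named if they had a loop in 2 or more lists, were among the 5 with the most read pairs or had the most distal anchors in a list, were C type, or were first or last in a cluster. The 5 strongest loops of each list, with ties, were also named. Scripts used Python 3.11.15, pandas 2.3.3, numpy 2.4.6 and SciPy 1.17.1 and were tested on simulated data.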

Additional observations from a re-analysis of the deposited data

Results flagged for a closer look

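Pairs of an anchor with itself, which were not counted as loops, also fell on promoters of clustered protocadherin genes. In Ishikawa they held 111 read pairs on 11 anchors, with up to 32 on the anchor over PCDHGA1 and PCDHGA2. In T-47D they held 183 read pairs on 15 anchors, with up to 49 on the anchor over PCDHGC3. They were noted because the comparisons of loops leave them out and no control sample sets their level. The LNCaP list held no pairs of this kind, so they could not be compared with it. No member had such pairs and no loop.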

How the results depend on the processing

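The number of members with a loop stayed within 1.5 times of 20 in Ishikawa under every alternative (19 to 20 when each part was left out). It fell to 4 in T-47D at 10 or more read pairs, and in LNCaP to 7 at 5 or more, 2 at 10 or more and 2 after thinning to the T-47D total. After thinning, 0 beta genes had a loop in LNCaP or Ishikawa, and 7 alpha and 10 gamma genes had one in Ishikawa. The read pairs per 100000 were 34.8 at 10 or more read pairs and 35.9 for spans of 20 kb to 1 Mb in Ishikawa (27.5 to 32.6 when each part was left out), 57.8 at 5 or more and 18.1 at 10 or more in T-47D, and 3.63, 0.772 and 1.97 at 5 or more, at 10 or more and thinned in LNCaP. Distal anchors linked to members in Ishikawa fell from 15 to 5 at 5 or more read pairs, 1 at 10 or more, 1 after thinning and 3 for loops in 2 or more parts, and to 9 without the first part (9 to 15 over the parts). They fell to 1 in T-47D and 0 in LNCaP at 10 or more, and to 0 in LNCaP after thinning. Higher minima and thinning keep fewer loops by construction, and the cause of the other moves was not tested.

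At an overlap of 50% at both ends, 0 loops were shared between Ishikawa and either other list in either direction, and the 3 shared by T-47D and LNCaP stayed at 3. With loops of 5 or more read pairs, 1 Ishikawa loop was found in T-47D and 1 T-47D loop in Ishikawa, and 0 were shared by T-47D and LNCaP or by Ishikawa and LNCaP. Promoters of 2 kb, other choices of start site and full cover of the window moved no result by over 1.5 times or outside its interval.

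No paired analysis was possible because each line has 1 list and no result comes from a test. Depth is limiting throughout, since over 40% of the members' loops rest on 3 read pairs, and the T-47D list rests on 1 sample.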
